A study of Mus musculus with 12 samples.

Results

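The 10 genes described here mark the connective tissue of nerve and were followed in dorsal root ganglia (DRG) of mice with Nf2-deficient Schwann cells, with and without Fak. They comprised 7 fibroblast genes (Pdgfra, Dcn, Lum, Dpt, Pi16, Dpp4 and Clec3b), 2 perineurial barrier genes (Cldn1 and Slc2a1) and the transcription factor gene Sox9. Members were chosen by symbol from a count table of 49315 genes, and each of the 10 symbols matched 1 gene. All 10 passed the filter on low counts, which left 18295 genes for testing. The DRG came from 6 Nf2 mice (Postn-Cre(+), Nf2 flox/flox) and 6 DKO mice (the same alleles with Fak1 flox/flox in addition), each with 3 mice labelled male and 3 labelled female, all 10 months old. The stated target of the Periostin-driven Cre is Schwann cells and their precursors. Whether it also acted in the cells that make these 10 genes was not tested. Both genotypes carried the Nf2 deletion, and a group with intact Nf2 was not analysed here. The 8 DRG taken from a mouse were pooled into 1 poly(A) RNA sequencing library, and levels are given as CPM, that is counts scaled to a fixed library total.

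A nerve is wrapped in layers of connective tissue. Fibroblasts of the outer epineurium lie around its vessels and bundles, flattened perineurial cells joined by tight junctions seal each bundle, and endoneurial fibroblasts lie between the nerve fibres, where schwannomas arise. The same layers continue over the ganglion and merge with the meninges at the nerve root, and arachnoid barrier cells of the meninges also make tight junction proteins. Merlin, the product of Nf2, restrains the YAP and TAZ coactivators, which act on genes through TEAD transcription factors. Fak, annotated as Ptk2, is a kinase of cell-matrix adhesions.

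Libraries held 21129191 to 41250329 counts, and mitochondrial genes took 1.99% to 5.60% of them. The neurofilament gene Nefl, a marker of the neurons of the labelled tissue, was abundant, with a mean level of 2182 CPM. Mouse 702, labelled male, had 496 CPM of Xist and 0.525 CPM of Ddx3y, levels seen in the libraries labelled female. Mice 649 (Nf2), 886 (DKO) and 887 (DKO) stood apart in the 10 genes. Ranked by CPM from library sizes scaled with TMM factors, mouse 649 was the lowest of the 12 mice in 7 genes. On that scale mouse 886 was the highest in 7, and mouse 887 was among the lowest 3 in 6. Mice 887 and 649 also had the highest mitochondrial shares (5.60% and 4.45%), and mouse 887 the smallest library, whereas mouse 886 had 2.20%. A link of these shares with the levels of the 10 genes was not tested. Values without these mice are given beside the results that they moved most.

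None of the 10 genes passed the threshold of an adjusted p of 0.05 between DKO and Nf2 DRG. All 10 log2 fold changes were above 0, with a median of 0.30, against 0.005 over all genes tested, of which 51.0% were above 0. The largest differences were those of Clec3b and Dpp4, whose mean levels in DKO mice were 2.36 and 2.22 times those in Nf2 mice. In the edgeR quasi-likelihood test, with p-values adjusted over 18295 genes, 0 of 10 genes were called, beside 0.940% of all genes (0.372% higher and 0.568% lower in DKO). At an unadjusted p under 0.05, 4 genes were higher in DKO (Clec3b, Dpp4, Dcn and Cldn1), beside 6.91% of all genes, and none was lower, beside 7.96%. Without mouse 886, and likewise without mouse 1048 or 1049, 2 of the 4 were left (Clec3b and Dpp4), with unadjusted p-values of 0.0582 for Dcn and 0.137 for Cldn1 without mouse 886. The genotypes overlapped in all 10 genes, whereas 1.95% of all genes tested had no overlap. In whole ganglia, a difference in the number of cells of a type and a difference in RNA per cell cannot be told apart.

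**Figure D1:**
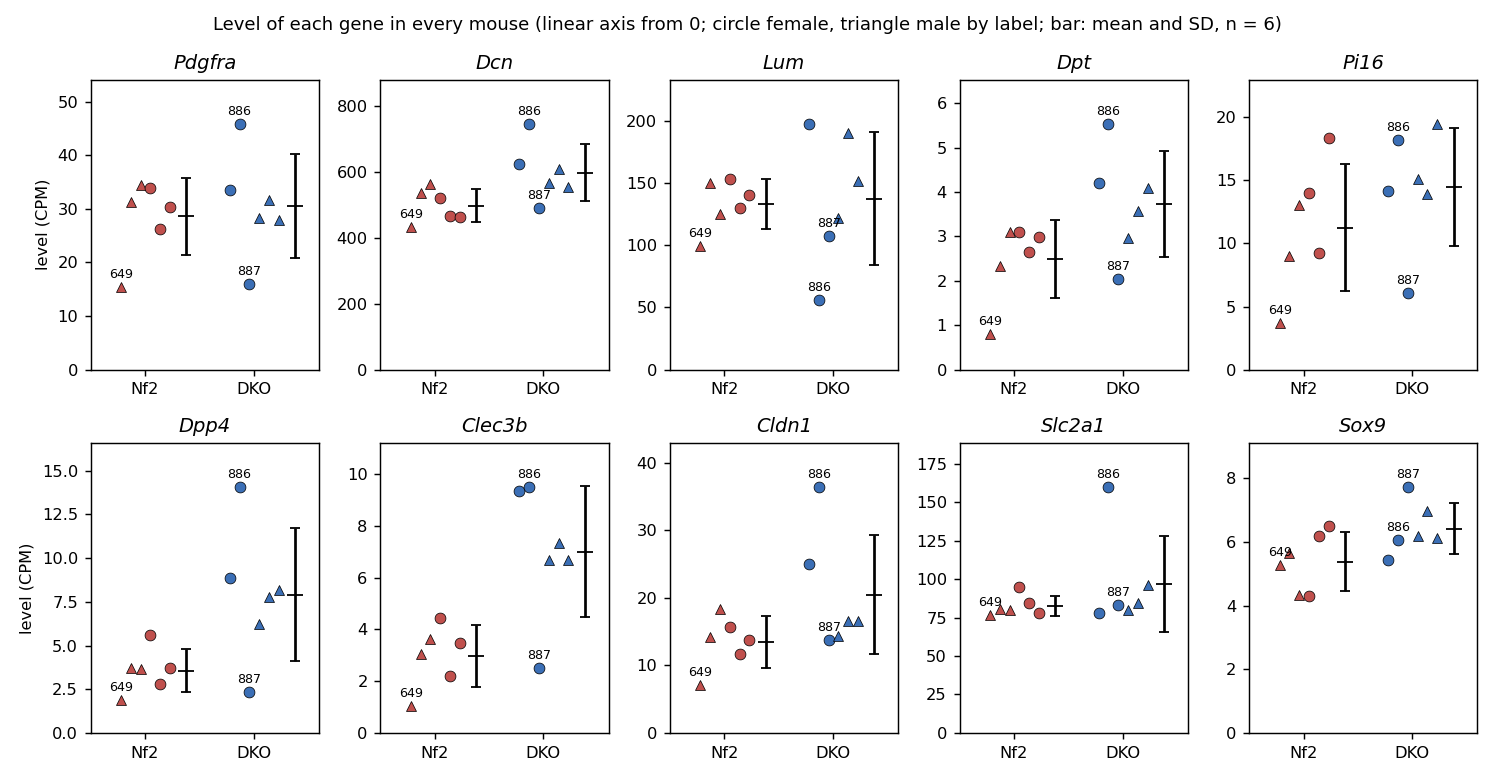
Level of each of the 10 genes in CPM (linear axis from 0) in each mouse, with Nf2 mice in red and DKO mice in blue, circles for mice labelled female, triangles for mice labelled male, and a bar for the mean and SD of 6 mice. In Clec3b and Dpp4, 5 of 6 DKO mice lie above every Nf2 mouse and mouse 887 lies among the Nf2 mice, while in Slc2a1 mouse 886 alone lies far above the rest.

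Expressed per kilobase of exon, the 10 genes spanned a wide range of levels. Dcn had a mean of 93.8 CPM per kilobase, Lum 55.3 and Slc2a1 25.5. The others followed with 5.02 for Clec3b, 3.50 for Cldn1, 2.95 for Pdgfra, 2.02 for Pi16, 1.81 for Dpt, 1.43 for Sox9 and 0.908 for Dpp4. Neighbours in this order overlapped in their ranges over the 12 mice, with 1 exception. The lowest level of Slc2a1 per kilobase, 21.9 CPM, lay above the highest of Clec3b, 9.57 CPM. The transcripts of the small proteoglycans were therefore abundant in whole DRG, whereas the genes used to tell fibroblast classes apart were low. Mouse 649 had only 19 reads of Dpt, 24 of Clec3b and 44 of Dpp4, so these genes carried the widest counting error.

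Clec3b (ENSMUSG00000025784, GRCm38 chromosome 9, 123150946 to 123157432, plus strand) encodes tetranectin, a secreted plasminogen-binding lectin made by adventitial fibroblasts. Its levels in Nf2 mice were 1.02 CPM (mouse 649), 3.04 (702), 3.62 (884), 4.43 (918), 2.20 (1048) and 3.48 (1049). In DKO mice they were 9.33 (885), 9.50 (886), 2.51 (887), 6.67 (914), 7.33 (915) and 6.69 CPM (917). All DKO mice but 887 lay above the highest Nf2 mouse, and mouse 887 lay below the median of 3.26 CPM of the Nf2 mice. The means were 2.96 ± 1.20 and 7.00 ± 2.54 CPM (SD, n = 6). The log2 fold change was 1.21 ± 0.33 (SE), with a 95% interval of 0.51 to 1.92 and an edgeR adjusted p of 0.102 (unadjusted 0.00249).

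Dpp4 (ENSMUSG00000035000, chromosome 2, 62330073 to 62412231, minus strand) encodes a cell surface peptidase that marks progenitor-like fibroblasts of the adventitia and fascia. Nf2 mice had 1.87 CPM (mouse 649), 3.71 (702), 3.66 (884), 5.61 (918), 2.82 (1048) and 3.70 (1049) of Dpp4. DKO mice had 8.84 (885), 14.1 (886), 2.32 (887), 6.25 (914), 7.79 (915) and 8.20 CPM (917). The arrangement was that of Clec3b, with 5 of 6 DKO mice above every Nf2 mouse and mouse 887 among the lowest. The means were 3.56 ± 1.24 and 7.91 ± 3.81 CPM (SD, n = 6), and the log2 fold change was 1.12 ± 0.34 (SE), with a 95% interval of 0.40 to 1.85 and an edgeR adjusted p of 0.130 (unadjusted 0.00500).

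The call of these 2 genes depended on the test and on mouse 887. Under DESeq2 both passed, with an adjusted p of 0.00944 for Clec3b and 0.0227 for Dpp4, and 1.66% of all genes were called higher. Under limma voom with sample quality weights both passed (0.0194 and 0.0429), beside 1.15% of all genes called higher. In simulated counts with 200 changed genes, 16.8% of the calls of DESeq2 were false, against 4.71% for edgeR and 3.57% for limma voom. These counts were drawn with dispersions estimated by edgeR and held no mice that stood apart. They therefore cannot rank the tests for the real mice or judge the calls of these 2 genes. Without mouse 887 both passed in edgeR (0.0326 and 0.0305), with log2 fold changes of 1.37 and 1.30, beside 0.498% of all genes called higher. Without mice 649 and 887, a fit added after the values were seen, the adjusted p was 0.00972 for Clec3b and 0.0283 for Dpp4, beside 0.800% called higher. Without mouse 886, the highest DKO mouse in both, neither passed (log2 fold changes 1.11 and 0.88, edgeR adjusted p 0.181 and 0.240).

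Dcn and Lum encode decorin and lumican, small leucine-rich proteoglycans that bind collagen fibrils. They are neighbours on the plus strand of chromosome 10, Dcn (ENSMUSG00000019929) at 97479609 to 97518143 and Lum (ENSMUSG00000036446) at 97565128 to 97572703, with 46984 bases between them. Dcn ranged from 434 CPM (mouse 649) to 563 CPM (884) in Nf2 mice, with a median of 493, and from 489.6 CPM (887) to 745 CPM (886) in DKO mice, with a median of 587. Of the DKO mice, 4 lay above every Nf2 mouse. The means were 497 ± 50.1 and 598 ± 86.3 CPM (SD, n = 6), and the log2 fold change was 0.25 ± 0.10 (SE), with a 95% interval of 0.04 to 0.46 and an edgeR adjusted p of 0.247. Lum ranged from 99.5 CPM (649) through a median of 136 to 154 CPM (918) in Nf2 mice, and from 55.8 CPM (886) through a median of 137 to 198 CPM (885) in DKO mice. The DKO mice thus lay on both sides of the Nf2 mice, with 2 above all of them and mouse 886 below all of them. The log2 fold change of Lum was 0.02 ± 0.23 (SE), with a 95% interval of -0.48 to 0.53 and an edgeR adjusted p of 0.975, and without mouse 886 it was 0.19.

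In mouse 886 the 2 proteoglycan genes parted. Its Dcn was the highest of the 12 mice and its Lum the lowest, so that the ratio of Dcn to Lum was 13.4, against 3.15 to 4.62 in the other mice.

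Dpt (ENSMUSG00000026574, chromosome 1, 164796644 to 164824266, plus strand) encodes dermatopontin, a matrix protein that binds decorin and marks fibroblasts across many tissues. Its levels ran from 0.809 CPM (mouse 649) through a median of 2.82 to 3.11 CPM (918) in Nf2 mice and from 2.04 CPM (887) through a median of 3.83 to 5.54 CPM (886) in DKO mice. Of the DKO mice, 4 lay above every Nf2 mouse, and mouse 649 lay far below the others. The log2 fold change was 0.56 ± 0.29 (SE), with a 95% interval of -0.06 to 1.17 and an edgeR adjusted p of 0.393, and it was 0.38 without mouse 649. Pi16 (ENSMUSG00000024011, chromosome 17, 29317680 to 29330593, plus strand) encodes peptidase inhibitor 16, a marker of adventitial fibroblasts. It ran from 3.71 CPM (649) through 11.1 to 18.4 CPM (1049) in Nf2 mice and from 6.11 CPM (887) through 14.6 to 19.5 CPM (917) in DKO mice. The genotypes overlapped over nearly their whole range, and the log2 fold change was 0.35 ± 0.32 (SE), with a 95% interval of -0.33 to 1.03 and an edgeR adjusted p of 0.667. It was 0.17 without mouse 649 and 0.53 without mouse 1049. An antisense gene with overlapping exons is annotated at Pi16 but was not in the table.

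Pdgfra (ENSMUSG00000029231, chromosome 5, 75152292 to 75198215, plus strand) encodes a receptor for platelet-derived growth factor that nearly all nerve fibroblasts carry, and that oligodendrocyte precursors carry too. Its levels ran from 15.3 CPM (mouse 649) through a median of 30.8 to 34.4 CPM (884) in Nf2 mice and from 15.9 CPM (887) through a median of 29.9 to 45.8 CPM (886) in DKO mice. Only mouse 886 lay above every Nf2 mouse, and 649 and 887 had nearly the same low level. The log2 fold change was 0.07 ± 0.22 (SE), with a 95% interval of -0.40 to 0.55 and an edgeR adjusted p of 0.913. It was -0.08 without mouse 886 and -0.05 without mouse 649, so no direction can be given. The difference of Pdgfra was thus small beside those of Clec3b and Dpp4, although the 3 genes varied together among mice, as described below.

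Cldn1 (ENSMUSG00000022512, chromosome 16, 26356642 to 26371841, minus strand) encodes claudin-1, a tight junction protein of perineurial and arachnoid barrier cells. Nf2 mice had 7.03 CPM (mouse 649) to 18.4 CPM (884), with a median of 13.98, and DKO mice had 13.8 CPM (887) to 36.4 CPM (886), with a median of 16.6. The excess lay in mice 885 (25.04 CPM) and 886, and the other 4 DKO mice lay within the range of the Nf2 mice. The means were 13.4 ± 3.86 and 20.5 ± 8.77 CPM (SD, n = 6), and the log2 fold change was 0.59 ± 0.26 (SE), with a 95% interval of 0.03 to 1.14 and an edgeR adjusted p of 0.308. Without mouse 886 it was 0.34 (edgeR adjusted p 0.545). Slc2a1 (ENSMUSG00000028645, chromosome 4, 119108711 to 119137983, plus strand) encodes the glucose transporter GLUT1, which perineurial cells, endothelial cells of the blood-nerve barrier and red cell precursors carry. It ran from 76.8 CPM (649) through 80.04 to 94.6 CPM (918) in Nf2 mice, and 4 of the 6 DKO mice lay within that range. Mouse 886 had 159.6 CPM and mouse 917 had 95.9 CPM. The log2 fold change was 0.21 ± 0.16 (SE), with a 95% interval of -0.12 to 0.55 and an edgeR adjusted p of 0.577, and without mouse 886 it was 0.01.

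Sox9 (ENSMUSG00000000567, chromosome 11, 112782224 to 112787760, plus strand) encodes a transcription factor of neural crest and cartilage development that endoneurial mesenchymal cells and astrocytes also make. It ran from 4.29 CPM (mouse 918) through a median of 5.47 to 6.50 CPM (1049) in Nf2 mice and from 5.43 CPM (885) through a median of 6.16 to 7.71 CPM (887) in DKO mice. Of the 10 genes it was the only one in which mouse 887 was the highest. The log2 fold change was 0.24 ± 0.13 (SE), with a 95% interval of -0.05 to 0.52 and an edgeR adjusted p of 0.433, and it ranged from 0.16 to 0.29 over the 12 fits that left out 1 mouse each.

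**Figure D2:**
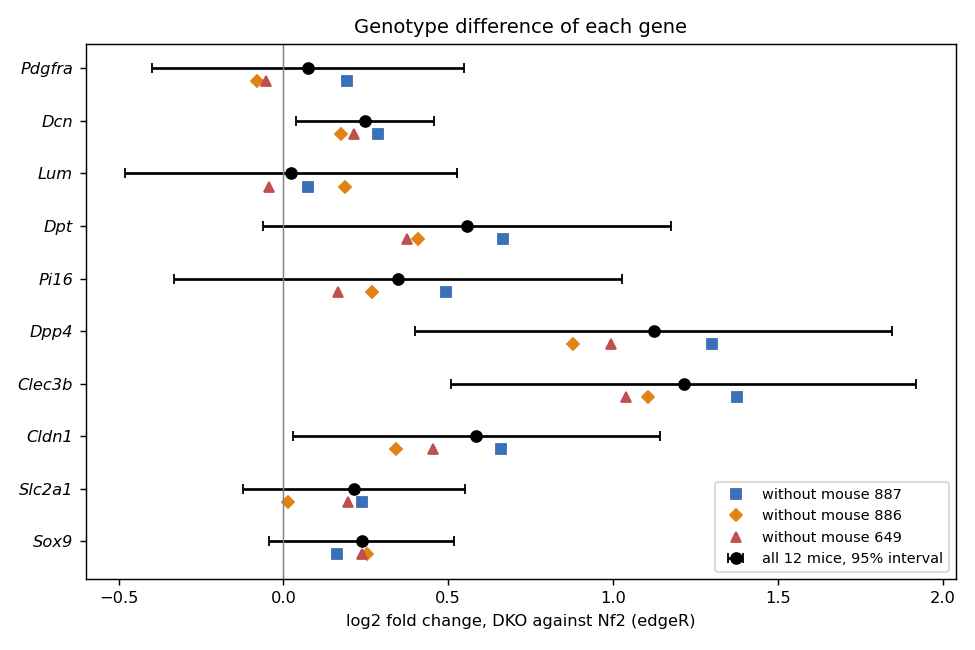
Log2 fold change of DKO against Nf2 for each gene (edgeR), with the 95% interval over all 12 mice in black and the value without mouse 887, 886 or 649 as coloured symbols. Clec3b and Dpp4 lie farthest to the right, and the value of Slc2a1 drops to 0.01 without mouse 886.

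Promoter sequences were examined because several of the 10 genes varied together among mice. RefSeq's table on GRCm38.p6 held the 250 bases before the transcription start of 6 of the 10 genes (Dpt, Dpp4, Slc2a1, Pdgfra, Cldn1 and Pi16). A set of 3 motifs was searched on both strands, GGAATG (TEAD), TGANTCA (AP-1) and GGGCGG (SP1), which do not overlap one another in the sequences shown. They occur in 12.6%, 6.75% and 32.7% of the 32851 promoters of the same length. Matches were found in 3 of the 6 promoters, which are shown 5′ to 3′ on the strand of the gene, with the matches in capitals.
Dpp4, chr2:62412232-62412481, minus strand: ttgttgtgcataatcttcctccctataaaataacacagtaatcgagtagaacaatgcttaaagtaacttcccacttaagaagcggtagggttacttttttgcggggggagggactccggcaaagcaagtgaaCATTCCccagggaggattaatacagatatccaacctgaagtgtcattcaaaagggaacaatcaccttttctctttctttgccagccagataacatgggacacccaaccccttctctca
Cldn1, chr16:26371840-26372089, minus strand: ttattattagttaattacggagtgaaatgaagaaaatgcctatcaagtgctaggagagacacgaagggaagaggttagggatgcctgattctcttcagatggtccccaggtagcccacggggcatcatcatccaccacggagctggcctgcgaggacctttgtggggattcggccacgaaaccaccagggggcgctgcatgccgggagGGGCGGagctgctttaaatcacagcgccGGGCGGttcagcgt
Slc2a1, chr4:119108495-119108744, plus strand: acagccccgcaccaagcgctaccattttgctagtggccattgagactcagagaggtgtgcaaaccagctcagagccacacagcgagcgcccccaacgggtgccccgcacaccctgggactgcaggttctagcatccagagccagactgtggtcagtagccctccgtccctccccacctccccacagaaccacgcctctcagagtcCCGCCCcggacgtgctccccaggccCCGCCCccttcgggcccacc
Dpp4 held 1 TEAD match, as CATTCC on the gene's strand, 118 to 113 bases before the start. Cldn1 held 2 SP1 matches, at 42 to 37 and at 14 to 9 bases before the start, and Slc2a1 held 2, as CCGCCC on the gene's strand, at 45 to 40 and at 20 to 15 bases. The 3 promoters of Dpt, Pdgfra and Pi16 held none of the 3 motifs. The Pi16 window (chr17:29318632-29318881) lies inside the gene by the coordinates given above. It therefore does not cover the bases before that gene start. A match is a match of letters and does not show binding.

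The 10 genes were next compared with one another across mice, after the genotype mean of log2(CPM + 1), with CPM from TMM-scaled library sizes, had been taken off. Of the 45 pairs, 19 passed an adjusted p of 0.05 by Pearson's r and 15 by Spearman's rho, and 15 passed both (permutation test within genotype, 100000 draws, adjusted over 45 pairs). Pdgfra, Clec3b, Dpp4, Dpt, Cldn1 and Dcn varied together, and every pair among them passed both tests other than Dcn with Dpt, which passed by Pearson's r alone. Pdgfra and Clec3b had r = 0.96 (adjusted permutation p 0.000450) and rho = 0.91 (0.00216), and r was 0.81 without mice 887 and 649. Dpp4 and Clec3b had r = 0.93 (adjusted permutation p 0.000900) and rho = 0.86 (0.00399), and r was 0.92 without mice 887 and 886. Cldn1, the barrier gene, went with these fibroblast genes, as with Pdgfra (r = 0.88, adjusted permutation p 0.000450, rho = 0.91, 0.000900, and r = 0.94 without mice 887 and 649). With Dcn it had r = 0.88 (adjusted permutation p 0.000900) and rho = 0.83 (0.00216), and r was 0.75 without mice 886 and 884. Without mouse 649, Cldn1 no longer passed by Pearson's r with Clec3b (r = 0.69, adjusted permutation p 0.119) or Dpp4 (0.74, 0.0799). Nor did Dcn with Dpp4 (0.78, 0.0643), Clec3b (0.73, 0.0793) or Dpt (0.72, 0.0726). Pdgfra with Dpt then passed by Pearson's r alone (0.90, 0.0287, rho = 0.72, 0.0979). The other pairs among these genes still passed both tests.

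Pi16 passed both tests with Dpt alone (r = 0.90, adjusted permutation p 0.00319, rho = 0.76, 0.0247), and this rested on 2 mice, as r was 0.54 without mice 649 and 887. Its r with Pdgfra dropped from 0.84 to 0.26, and with Clec3b from 0.88 to 0.44, when the 2 farthest mice were left out. Slc2a1, Lum and Sox9 took part in no pair that passed over all 12 mice. Without mouse 886, Lum passed both tests with Dpp4 (r = 0.83, adjusted permutation p 0.00534, rho = 0.85, 0.0135) and with Clec3b (r = 0.81, 0.00580, rho = 0.77, 0.0390). The neighbours Dcn and Lum had r = -0.26 (adjusted permutation p 0.601) and rho = 0.10 (0.785), whereas r was 0.72 without mice 886 and 884 and 0.68 without mouse 886 alone (rho 0.57). Slc2a1 and Lum had r = -0.74 (adjusted permutation p 0.173) and rho = -0.25 (0.534), and r was 0.17 without mice 886 and 885 and 0.11 without mouse 886 alone (rho -0.09). Sox9 had a negative r with each of the other genes, from -0.60 with Clec3b (adjusted permutation p 0.106, rho = -0.68, 0.0604, and r = -0.63 without mice 887 and 649) to -0.09 with Lum. Without mouse 649 alone, Sox9 and Clec3b passed both tests (r = -0.72, adjusted permutation p 0.0287, rho = -0.72, 0.0427). Without mouse 887 alone, their r was -0.40 (0.487).

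**Figure D3:**
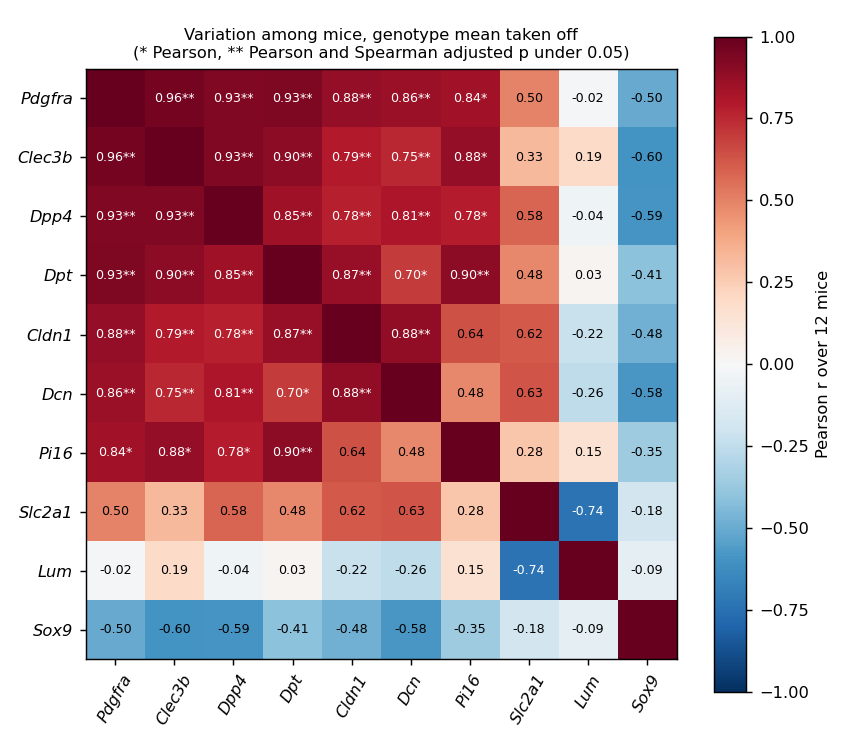
Pearson's r between each pair of the 10 genes over 12 mice, with the genotype mean taken off; 1 asterisk marks an adjusted permutation p under 0.05 for Pearson's r, and 2 asterisks mark it for Spearman's rho as well. The block at the upper left holds the 6 genes that varied together, with Pi16 beside it, and Slc2a1, Lum and Sox9 lie outside.

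For likeness beyond the 10 genes, the 3 genes of at least 5 CPM with the highest r were taken from 12466 genes. This is a description over 12 mice, whose libraries differed in depth and in the level of muscle genes. Clec3b was most like Anxa11, Bgn and Ntn1 (all r = 0.97), and Bgn encodes biglycan, a proteoglycan related to decorin. Dpp4 was most like Prmt7 (0.96), Gas1 (0.96) and Prg4 (0.95). Cldn1 was most like Pdk1 (0.96), Sema3d (0.96) and Slc6a13 (0.95), the last of which encodes a GABA transporter of meningeal cells. Lum was most like Itgb8 (0.95), Myo10 (0.95) and Spry4 (0.94), and Slc2a1 most like Zbtb16 (0.97), Tns2 (0.96) and Bcl2l1 (0.96). Without mouse 886 these values were lower, at 0.86, 0.85 and 0.84 for Lum and 0.87, 0.77 and 0.83 for Slc2a1. Pi16 was most like 2 globin genes, Hba-a1 (0.97) and Hbb-bs (0.96), and Igfbp5 (0.97). Sox9 had no gene closer than Hexdc (0.86).

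Further genes of the same tissue layers were described by 3 lists, set beside all genes tested, of which 51.0% had a log2 fold change above 0, 6.91% were higher and 7.96% lower at an unadjusted p under 0.05. Of 15 other epineurial or adventitial fibroblast genes, 1 fell in DKO and 0 rose, with 3 higher and 1 lower at an unadjusted p under 0.05, 11 of 15 log2 fold changes above 0 and a median of 0.14. The gene that fell was Sema3c, a secreted guidance protein, by 0.47 (log2; adjusted p 0.0333 in edgeR), with 79.2 to 111 CPM in Nf2 and 56.5 to 78.1 CPM in DKO mice. The most abundant were Gsn (615 CPM, log2 fold change -0.03), Cd55 (333 CPM, 0.05) and Tnxb (84.9 CPM, 0.17). Of 12 other endoneurial fibroblast genes, 1 fell and 0 rose, and the median was -0.03, with 6 of 12 above 0 and 1 higher and 1 lower at an unadjusted p under 0.05. Meox1, a homeobox transcription factor gene, fell by 0.86 (log2; adjusted p 0.0411 in edgeR), with 11.4 to 14.4 CPM in Nf2 and 4.26 to 11.6 CPM in DKO mice. The most abundant, Apod (1848 CPM), Abca8a (798 CPM) and Etv1 (94.7 CPM), had log2 fold changes of -0.06, -0.14 and 0.04. Of 14 other perineurial genes none passed. At an unadjusted p under 0.05, 2 were higher (Gli1, log2 fold change 0.67, and Ptch1, 0.48) and 1 was lower (Jam3, -0.18). The log2 fold change was above 0 in 10 of 14, with a median of 0.05. The most abundant, Itga6 (281 CPM), Itgb4 (233 CPM) and Tjp1 (124 CPM), had log2 fold changes of -0.16, 0.05 and 0.11. Higher at that threshold in the epineurial list were Igfbp6 (0.74), Ly6a (0.35) and Tnxb, and in the endoneurial list Osr2 (0.55). In whole ganglia, the most abundant genes of a list need not come from its cell type. The call of Sema3c was lost in 14 and that of Meox1 in 18 of 29 other fits, with the direction unchanged.

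Meningeal genes were high and low in the same mice. The summed level of 12 meningeal and arachnoid genes was 270.6 CPM (mouse 649) to 468 CPM (1048) in Nf2 mice, and 329 CPM (887), 556 CPM (914), 666 CPM (917), 725 CPM (915), 859 CPM (885) and 1781 CPM (886) in DKO mice. Mouse 649 was the lowest of all, mouse 887 the lowest DKO mouse and mouse 886 the highest, as in most of the 10 genes. Of the 12 genes none passed, 9 were higher at an unadjusted p under 0.05, and the median log2 fold change was 0.91. The most abundant, Ptgds (310 CPM), differed by 1.93 on the log2 scale (adjusted p 0.107 in edgeR), and Cdh1 (168 CPM) by -0.01. Ptgds made up 10.5% to 73.4% of the sum, and the sum without it was 242 to 276 CPM in Nf2 mice and 240.1 CPM (887), 273 CPM (914) and 299 to 474 CPM in the other DKO mice. Most of this smaller sum in every Nf2 mouse was Cdh1, at 143 CPM (1049) to 199.8 CPM (649), which hardly differed between the genotypes. The smaller sum, and a covariate made from it, thus reflect the other meningeal genes only in part. With the summed meningeal level as a covariate, a fit added after the values were seen, the log2 fold change was 0.46 for Clec3b (edgeR adjusted p 0.693), 0.12 for Dpp4 (0.933), -0.09 for Cldn1 (0.932), 0.02 for Dcn (0.972) and -0.55 for Pdgfra (0.302). With the sum without Ptgds as the covariate, also added, it was 0.67 for Clec3b (0.566), 0.35 for Dpp4 (0.778), 0.06 for Dcn (0.890) and -0.39 for Pdgfra (0.543), and close to 0 for Cldn1. Since 5 of 6 DKO mice, or 4 of 6 without Ptgds, also had more of these meningeal genes than any Nf2 mouse, genotype and meningeal level cannot be told apart in these mice.

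**Figure D4:**
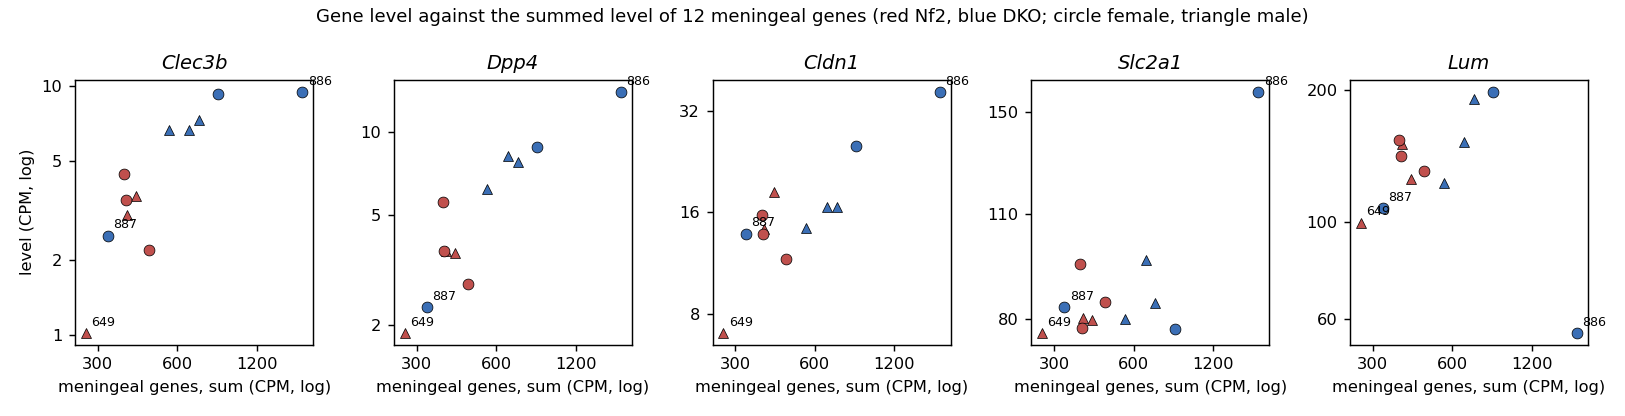
Level of 5 of the genes (CPM, log axis) against the summed level of 12 meningeal genes (CPM, log axis) in each mouse, with Nf2 in red, DKO in blue, circles for mice labelled female and triangles for mice labelled male. Mice 649 and 886 lie at the ends in Clec3b, Dpp4 and Cldn1, while in Lum mouse 886 lies far below the rest, at 55.8 CPM.

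Other cell types that a dissected DRG can hold were examined by 14 lists, the meningeal one included. Endothelial genes, of which Vwf and Abcb1a were the most abundant, summed to 188 to 270.0 CPM in Nf2 and 230 to 375 CPM in DKO mice, with mouse 886 again the highest, and their median log2 fold change was 0.21 with none of 12 called and 3 higher at an unadjusted p under 0.05. Skeletal muscle genes summed to 16.6 to 1118 CPM in Nf2 and 25.7 to 363 CPM in DKO mice, with a median log2 fold change of -2.18, none of 12 called and 11 lower at an unadjusted p under 0.05. With the muscle level as a covariate the log2 fold changes of Clec3b and Dpp4 were 1.33 and 1.14 (edgeR adjusted p 0.159 and 0.234). Cartilage and tendon genes, which bear on Sox9, summed to 313 to 405 CPM in Nf2 and 198 to 301 CPM in DKO mice, and Col11a1 fell by 0.76 (log2; adjusted p 0.0373 in edgeR), 1 of 8 tested. Without Col11a1, which made up 51.9% to 83.9% of the sum, it was 55.5 to 87.9 CPM in Nf2 and 51.2 to 106 CPM in DKO mice. The 8 log2 fold changes had a median of -0.06, with 4 above 0, and at an unadjusted p under 0.05 1 gene was higher (Fmod, 0.96) and 2 were lower. Macrophage genes summed to 218 to 324 CPM in Nf2 and 180 to 238 CPM in DKO mice, and 1 of 10, C1qb, fell by 0.71 (edgeR adjusted p 0.0138). Of these 10 log2 fold changes 9 were below 0, with a median of -0.39, and 6 genes were lower at an unadjusted p under 0.05. No gene was called in the lists of mural cells (median log2 fold change 0.16), satellite glia (-0.17), astrocytes (0.26), oligodendrocyte lineage (0.55), Schwann cells (0.04), sensory neurons (0.008), adipocytes (-0.31), erythroid cells (0.74) and proliferation (-0.02), with 0 to 3 genes of a list at an unadjusted p under 0.05. DESeq2, beside 1.66% of all genes higher and 2.41% lower, called Ptgds and Aldh1a2 of the meningeal list, Gli1 of the perineurial list, Flt1, Cspg4 and Gfap higher, and Cdh19 of satellite glia and 4 macrophage genes lower. Limma voom, beside 1.15% higher and 1.69% lower, called Ptgds, Abcb1a and Gfap higher, and Cdh19 and 2 macrophage genes lower. Sema3c, Meox1 and Col11a1 were lower and called with both tools, and neither called a gene of the muscle list. Of all these lists no gene was at 0 in every mouse. Apart from the fits with meningeal and muscle covariates, the part of these cells in the levels of the 10 genes was not examined. The meningeal fits cannot tell that part from genotype, as given above.

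**Figure D5:**
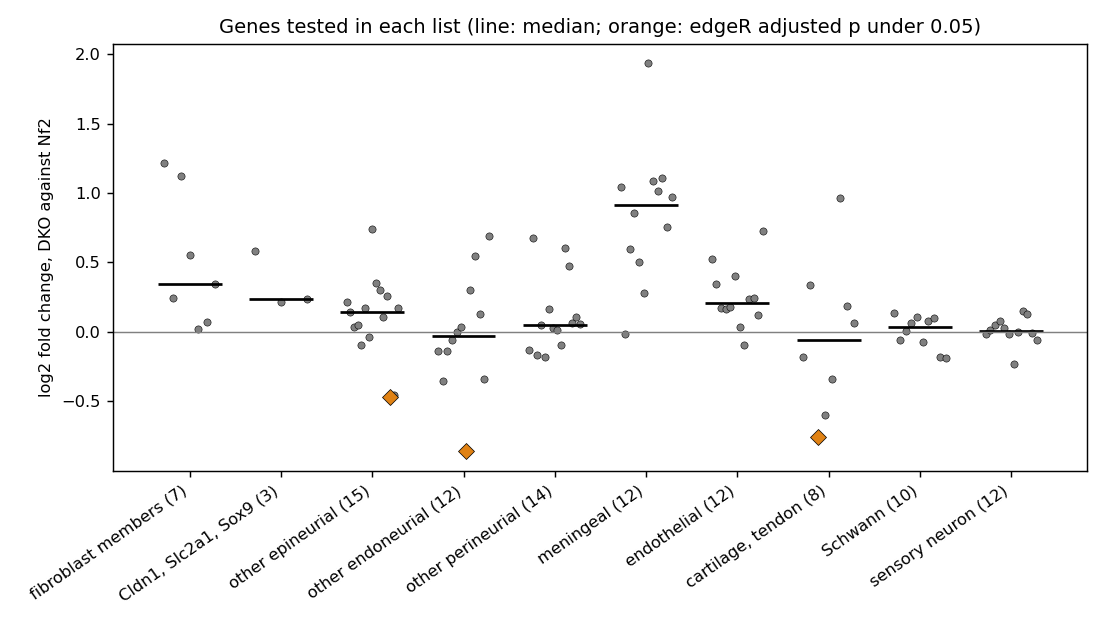
Log2 fold change of DKO against Nf2 for each tested gene of the 10 genes and of 8 other lists, with the list's median as a line and genes past an edgeR adjusted p of 0.05 as orange diamonds. The meningeal list lies highest with a median of 0.91, and the diamonds are Sema3c, Meox1 and Col11a1.

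A difference by labelled sex was not detectable in any of the 10 genes. With genotype as a covariate, 0 of 10 passed between males and females in edgeR and in DESeq2, and 0 at an unadjusted edgeR p under 0.05, beside 0.0164% and 2.91% of all genes. For 9 of 10 the log2 difference of male from female was below 0, the exception being Lum (0.09), and the largest was that of Cldn1 (-0.36 ± 0.25 SE, unadjusted edgeR p 0.177, and -0.16 without mouse 886). For the interaction of genotype with sex, 0 of 10 passed in edgeR and in DESeq2, and 0 at an unadjusted edgeR p under 0.05, beside 0.0109% and 4.78% of all genes. The largest interaction was that of Pi16, at 0.97 ± 0.61 (SE, edgeR adjusted p 0.920), and it was 0.63 without mouse 649, 1.31 without mouse 886 and 0.66 without mouse 887. Its means were 13.9 and 12.8 CPM in Nf2 and DKO mice labelled female and 8.59 and 16.2 CPM in those labelled male (n = 3 each). Cldn1 had the opposite arrangement, with 13.7 and 25.1 CPM in mice labelled female and 13.2 and 15.9 CPM in those labelled male (interaction -0.66 ± 0.48, edgeR adjusted p 0.920), and the interaction was -0.94 without mouse 649, -0.29 without mouse 886 and -0.93 without mouse 887. For Clec3b and Dpp4 the log2 fold changes were 1.07 and 1.04 in mice labelled female and 1.38 and 1.22 in mice labelled male. Leaving out mouse 702, 649, 886 or 887 brought none of the 10 genes past an adjusted p of 0.05 in either test of sex.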

How the data were processed

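RNA from DRG of 12 mice (RNeasy Plus Mini kit with DNase) was sequenced by a commercial provider after poly(A) selection with NEBNext Ultra II. The values the authors deposited are raw counts of reads, 1 whole number for each gene in each mouse, with no normalization. The submitters' processing notes name Trimmomatic 0.36, STAR 2.5.2b, featureCounts, Subread 1.5.2 and GRCm38, without their settings. Whether strand was used and how reads with several matches were counted is not given in the sources used here, so reads of the antisense genes that overlap exons of Pdgfra, Dpp4 and Slc2a1 (each under 0.5 CPM on average) cannot be told apart from theirs if strand was not used. Coordinates and exon lengths were taken from GENCODE M21, which held 49056 (99.5%) of the 49315 genes.

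Tests were run with edgeR 4.0.16, DESeq2 1.42.0 and limma 3.58.1 under R 4.3.3. Summaries used pandas 2.3.3 and numpy 2.4.6, and plots matplotlib 3.10.9, under Python 3.11.15. The filter on low counts was filterByExpr by genotype, and TMM factors (0.977 to 1.02) scaled the libraries. The genotype test was the quasi-likelihood F test of edgeR with no covariate, with Benjamini-Hochberg adjustment over all genes tested and a threshold of 0.05. SE was taken from the log2 fold change and the F statistic. Sex was tested by label, with genotype as a covariate or as an interaction. Mice were grouped by the labels, which give a mouse number and no batch. Each mouse is a separate animal and counting error was small beside the spread between mice, except in genes of few reads.

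The 10 genes, the 17 other gene lists and the tests were chosen with earlier results of these data known. Named genes are the 10 members, the called and the most abundant genes of a list, and the 3 genes most like a member. For some lists, genes at an unadjusted p under 0.05 are named as well. Alternatives comprised 3 other scalings, 2 other filters, DESeq2, limma voom with quality weights, limma on log2(CPM + 4) as in the study's plots, sex or muscle level as covariates, each labelled sex alone and each mouse left out. A further 6 were added after the data had been seen. Scripts were tested on simulated data, where 16.8% of the genes called by DESeq2 were false, against 4.71% for edgeR and 3.57% for limma voom. The simulation used dispersions estimated by edgeR and no mice that stood apart, and DESeq2 was run without the filter on low counts. It does not rank the tools for these mice.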

Additional observations from a re-analysis of the deposited data

Results flagged for a closer look

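Among 58 groups of 6 mice, 1 mouse stood farther from the rest than Dixon's 95% limit allows in 7, where chance gives about 2.9. Mouse 649 was far below the other Nf2 mice in Pdgfra, at 15.3 CPM against 26.2 CPM in the nearest mouse (1048), and in Dpt, at 0.809 CPM against 2.33 CPM (702). Mouse 887 was far below the other DKO mice in Pi16, at 6.11 CPM against 13.9 CPM (915), and in Clec3b, at 2.51 CPM against 6.67 CPM (914). The summed level of 7 erythroid genes, chiefly globins, was also far lower in mouse 887, at 60.7 CPM against 378 CPM in the nearest DKO mouse (885), so the mouse with the least Pi16 among DKO mice also had the least globin RNA. Mouse 886 was far above the other DKO mice in Slc2a1, at 159.6 CPM against 95.9 CPM (917), and in the summed level of Cldn1, Slc2a1 and Sox9, at 202 CPM against 119 CPM (917). That sum is mostly Slc2a1, and it is therefore not a second result.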

How the results depend on the processing

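The count of 172 genes called between the genotypes became 829 with DESeq2, 521 with limma voom, 98 with the muscle level as covariate, 34 with the meningeal level as covariate (39 without Ptgds in it), 57 in mice labelled female, 2 in mice labelled male (9 without mouse 702) and 314 without mice 649 and 887, and 81 to 217 when each mouse was left out (81 to 114 without mouse 702, 884, 885, 914, 917, 918 or 1049). Of the 10 genes, 2 (Clec3b and Dpp4) were called with DESeq2, with limma voom and without mice 649 and 887, and 0 to 2 when each mouse was left out, the 2 without mouse 887. In the other fits none was called. All 10 log2 fold changes stayed above 0 under the 3 other scalings and the 2 other filters.

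Pdgfra turned to -0.027 with limma voom, -0.20 without mice 649 and 886 and -0.55 with the meningeal covariate, and ranged from -0.080 (without mouse 886) to 0.19 when each mouse was left out (-0.053 without mouse 649). Lum turned to -0.050 on log2(CPM + 4) and -0.24 in mice labelled female, and ranged from -0.11 to 0.19, with values below 0 without mouse 649 (-0.04), 885 (-0.11), 915 (-0.09) and 917 (-0.0061). Pi16 turned to -0.12 in mice labelled female. With the meningeal covariate Pi16 turned to -0.22, Dpt to -0.11, Cldn1 to -0.087 and Slc2a1 to -0.14, and without Ptgds in it Pdgfra was -0.39, Pi16 -0.043, Cldn1 -0.0045 and Slc2a1 -0.099. The cause was not tested. Left out singly, mice 702, 884, 885, 917, 918 and 1049 each ended the calls of Sema3c, Meox1 and Col11a1 (edgeR adjusted p 0.0648 to 0.103). Mouse 886 also ended those of Sema3c and Col11a1, mouse 649 those of Meox1 and Col11a1, mouse 914 those of Sema3c and Meox1, and mice 887 and 1048 that of Meox1. Between the sexes, 3 genes were called, 13 with DESeq2, 10 without mouse 702 and 0 without mouse 649, 886 or 887 (edgeR, with 435 to 1588 at an unadjusted p under 0.05). For the interaction it was 2 genes, 20 with DESeq2 and 2 to 5 without each of these 4 mice, the 5 without mouse 886. The count of 15 pairs became 13 to 15 under other scales and 10 to 17 when each mouse was left out. It was 10 without mouse 649, Clec3b with Sox9 among them, and 10 without mouse 1048. No paired analysis was possible because each mouse has its own number and none is shared between the genotypes. Low counts limit Dpt, Clec3b and Dpp4 most.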

Other observations

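Mouse 886 lay above its genotype mean in most of the 10 genes, near it in Sox9 and far below it in Lum. Relative to its genotype mean on the log2(CPM + 1) scale, it lay 0.64 higher in Pdgfra, 0.34 higher in Dcn, 0.90 higher in Dpp4, 0.89 higher in Cldn1 and 0.77 higher in Slc2a1, and its value for Lum was -1.17. Mouse 887 had -1.26 for Dpp4, -1.08 for Clec3b and -1.02 for Pi16, and 0.27 for Sox9. Mouse 649, the lowest Nf2 mouse, had -1.23 for Pi16, -0.89 for Clec3b and -0.89 for Dpt, while its Sox9 (0.01) and Slc2a1 (-0.07) were near the genotype mean.

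Of the genes outside the 10, Gfap, an intermediate filament gene of astrocytes and of some Schwann cells, was in the astrocyte list. It had 13.7 to 73.3 CPM in Nf2 and 60.1 to 133 CPM in DKO mice. Its difference of 1.22 (log2) missed the threshold, with an adjusted p of 0.0700 in edgeR. The lowest Nf2 value was that of mouse 649. Gfap and Aldoc (131 CPM, log2 fold change 0.09) were the 2 most abundant genes of the list.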
